A study of Mus musculus with 49 samples.

Results

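Colon of mice given dextran sulfate sodium (DSS) and injected with anti-IL-36R, an antibody against human interleukin-36 receptor (8 libraries), was compared with colon of mice given DSS and injected with PBS (6 libraries). These are 14 of the 49 RNA libraries of the study, chosen by their titles, and every gene with enough counts in colon was tested, 15731 in all. All animals of both groups, controls included, belonged to a model of DITRA, deficiency of the interleukin-36 receptor antagonist, on a strain labelled 75% C57BL/6NTac 25% 129S6/SvEvTac. The control injection was PBS and not another antibody, so an effect of binding the receptor and an effect of receiving any antibody cannot be told apart. The alleles of the model, the age of the animals, the doses and the days of treatment were not given in the sources used here. The same colon table held 5 libraries of water controls given PBS and 7 libraries of DSS with anti-IL-12p40, which is directed at mouse IL-12p40, and both are used below for reference. Skin of the same model, treated with imiquimod (IMQ) and PBS (6 libraries) or IMQ and anti-IL-36R (7 libraries), is used once, to test whether the antibody comparison differed between tissues.

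DSS, a sulfated polysaccharide given in drinking water, damages colonic epithelium and brings on colitis with ulcers and many neutrophils. Interleukin-36 cytokines belong to the interleukin-1 family: they bind the receptor IL1RL2, which pairs with IL1RAP and signals through MyD88 to NF-kB and MAP kinases, and a natural antagonist competes for the same receptor. In barrier tissues this signal is known to induce chemokines, growth factors for granulocytes and antimicrobial proteins, and IL-12p40 is the subunit shared by interleukin-12 and interleukin-23.

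The 26 colon libraries held between 15081670 and 18663357 counts each. Values below are CPM, counts scaled to a common library size with TMM factors, given as the lowest, median and highest library of a group, and differences are log2 fold changes ± SE with Benjamini-Hochberg adjusted p from edgeR. A gene is said to have risen or fallen where that p was under 0.05. The PBS group was uneven: the summed level of 21 neutrophil markers was 285, 448 and 724 CPM in replicates 1, 3 and 4 and 4570, 3600 and 4590 CPM in replicates 2, 5 and 6. Replicates 5 and 6 also lay farthest out on the first principal component of all 26 libraries (86.8 and 106.7), which held 36.7% of the variance. Counts of genes are therefore also given without those 2 libraries. The transcripts of 17 goblet cell genes, which mark colonic epithelium, summed to between 5090 and 69900 CPM across all colon libraries. The highest sum was that of water replicate 4, against 17100 to 23100 CPM in the other water libraries. This library also lay apart on the fourth principal component (75.2, against -19.3 to -7.8 in the other water libraries). In whole colon, fewer cells of a type and less RNA per cell cannot be told apart.

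With anti-IL-36R, transcripts of neutrophils, of the chemokines that draw them, of interleukin-1 and interleukin-6 family cytokines and of matrix proteases fell, while a smaller set that included colonocyte gasdermins and a drug transporter rose. Of 15731 genes tested, 857 fell (5.45%) and 182 rose (1.16%), together 6.60%, and 3656 had an unadjusted p under 0.05. Falls of at least 2-fold were seen for 519 of them and rises of that size for 33, and the median log2 fold change over all genes tested was 0. Leaving out single libraries moved the number of genes that passed from 439 (without PBS replicate 6) to 1772 (without PBS replicate 1), and without PBS replicate 5 it was 589. Without PBS replicates 5 and 6 together, 113 of 15754 genes tested fell and 2 rose, and 114 of these 115 had also passed in the same direction with all libraries. Counts of list members below are to be set beside these shares. With all libraries they are 5.45% lower and 1.16% higher, and without PBS replicates 5 and 6, 113 of 15754 lower. PBS and antibody ranges were fully separate for 119 genes that were lower under the antibody (0.756% of those tested) and for 23 that were higher (0.146%).

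**Figure D1:**
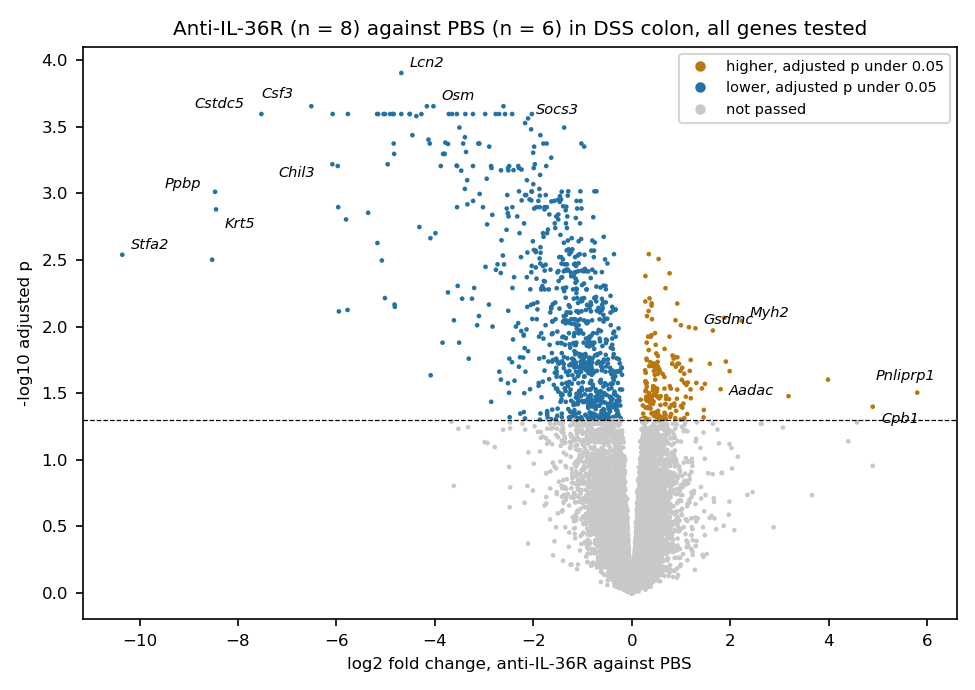
Log2 fold change of each of 15731 genes in DSS colon, anti-IL-36R (8 libraries) against PBS (6 libraries), on the x axis, and -log10 of the adjusted p on the y axis. The dashed line is an adjusted p of 0.05: 857 genes above it lie to the left of 0 and 182 to the right, and the falls reach further out than the rises.

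Neutrophil genes were among the largest falls: of the 15 largest, Ltf, Ngp, Mmp8 and Stfa2l1 are on the list of neutrophil markers. Ngp stood at 577 CPM in PBS replicate 2 and at 1.27 to 82.7 CPM in the other PBS libraries. Without PBS replicates 2 and 6 its fold change was -2.34 and did not pass (adjusted p = 0.36). Krt6b, Krt5, Krt14 and Ppbp, also among the 15, were high in a single PBS library and are described with it. The smallest p belonged to Lcn2, which encodes lipocalin 2, an iron-scavenging protein of neutrophil granules and inflamed epithelium (Entrez gene ID 16819, chromosome 2, 32384637 to 32387739, mm10). Lcn2 stood at 35.3, 193 and 548 CPM under PBS and at 3.70, 7.54 and 20.7 CPM under anti-IL-36R, with water controls between 0.676 and 1.91 CPM. Every antibody library lay below every PBS library and above every water library, and the fall of -4.68 ± 0.55 had an adjusted p of 0.000125. S100a9, 1 chain of calprotectin (Entrez gene ID 20202, chromosome 3, 90692630 to 90695721), stood at 62.7, 683 and 1440 CPM under PBS and 10.2, 18.5 and 48.7 CPM under the antibody. Its groups did not overlap, and it fell by 4.91 ± 0.718 on the log2 scale (adjusted p = 0.000254), next to -5.01 ± 0.741 for S100a8, the other chain (adjusted p = 0.000254).

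The other members of the neutrophil list are granule proteins, surface receptors and cytosolic protease inhibitors. Of 21 markers tested, 17 fell and none rose, against 5.45% of all genes, with a median log2 fold change of -3.66, and 8 had groups that did not overlap. Without PBS replicates 5 and 6, 14 of 21 fell (median -2.95), against 113 of 15754 of all genes. The granule proteins Mmp8, a collagenase (-5.77 ± 0.795, adjusted p = 0.000254), and Ltf, lactoferrin (-5.81 ± 1.08, adjusted p = 0.00157), were among the 15 largest falls. Ltf stood at 174 and 1380 CPM in PBS replicates 2 and 6 and at 6.11 to 15.8 CPM in the other 4, and without those 2 libraries its fold change was -1.45 and did not pass (adjusted p = 0.339). The summed level of the list was 285, 2160 and 4590 CPM under PBS and 121, 178 and 311 CPM under the antibody. One antibody library thus reached the range of the PBS group, the one at 311 CPM. The sum includes the markers that did not pass. One of these, Ly6g, had a mean of 89.4 CPM under the antibody and made up much of the sum there. Whether the sums overlap without it was not tested.

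Markers of neutrophil recruitment and activation followed. The chemokine receptor Cxcr2 fell from 10.6, 41.8 and 136 CPM to 4.07, 5.76 and 16.4 CPM (-2.95 ± 0.502, adjusted p = 0.000777), with overlap between groups. Trem1, an amplifier of myeloid activation, fell from 5.73, 23.6 and 121 CPM to 0.617, 1.56 and 3.55 CPM (-4.51 ± 0.653, adjusted p = 0.000254), with none. Csf3r, the receptor of granulocyte colony-stimulating factor, fell by 2.62 ± 0.522 on the log2 scale (adjusted p = 0.00293), a call that was lost without PBS replicates 5 and 6 (adjusted p = 0.303). The 4 markers that did not pass were Ly6g, Mpo, Elane and Camp. Ly6g, a surface antigen of mouse neutrophils, gave 43.3, 71.6 and 179 CPM under PBS, 28.8, 88.1 and 142 CPM under the antibody and up to 77.8 CPM in water controls. Its groups overlapped throughout (0.06 ± 0.479, adjusted p = 0.957), and its counts were fractional in 25 of 26 libraries, as where reads are divided among related genes.

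Stefins, inhibitors of cysteine proteases that neutrophils carry, showed the largest fold. Stfa2 had 975 counts over the 6 PBS libraries and 0 counts in all 8 antibody libraries. It stood at 47.6 CPM in PBS replicate 2 and at 0.127 to 5.62 CPM in the other PBS libraries. Pooled over each group, against a floor of 3 counts over the antibody group, Stfa2 was at least 434-fold lower. Most of the pooled PBS level came from replicate 2, so this bound does not hold for each PBS library. The fitted log2 fold change was -10.35 ± 1.73 (adjusted p = 0.00289). Stfa2 could be tested in 14 of 23 alternative analyses. Those without PBS replicates 5 and 6, or without PBS replicates 2 and 6, were not among them. The related Cstdc5 (-7.53 ± 1.06, adjusted p = 0.000254) and Stfa2l1 (-5.17 ± 0.749, adjusted p = 0.000254) also had groups that did not overlap. These neighbours on chromosome 16 resemble each other in sequence, and their counts were not whole numbers in 10 to 14 of 26 libraries, so how reads were divided among them is uncertain. Chil3, a chitinase-like protein of myeloid cells, reached 640 CPM in PBS replicate 2 against 3.57 to 31.5 CPM in the other PBS libraries and 0.488 to 4.56 CPM under the antibody (-6.08 ± 1, adjusted p = 0.000605).

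The signals that release and attract neutrophils fell as well. Csf3 encodes granulocyte colony-stimulating factor, the growth factor that drives neutrophil output from bone marrow (Entrez gene ID 12985, chromosome 11, 98700183 to 98703631). Csf3 stood at 1.20, 10.96 and 26.98 CPM under PBS and at 0 to 0.504 CPM under the antibody, with 0 counts in 3 of 8 antibody libraries. The groups did not overlap (-6.51 ± 0.841, adjusted p = 0.000222). Of 7 neutrophil chemokine genes tested, 6 fell and none rose (median -3.55): Cxcl1, Cxcl2, Cxcl3, Cxcl5, Ppbp and the receptor Cxcr2. Without PBS replicates 5 and 6, 4 of 7 fell.

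Cxcl1, Cxcl2 and Cxcl3 are neighbouring genes on chromosome 5 whose products are ligands of CXCR2. Their promoters are shown because the 3 genes fell together and their sequences hold the same 11 bases close to the start. Il6, which fell with them, is shown for comparison. Each line gives the 250 bases before the gene start on the plus strand (RefSeq, GRCm38.p6, the assembly of mm10), 5′ to 3′. The windows are chr5:90890995-90891244 for Cxcl1, chr5:90903649-90903898 for Cxcl2, chr5:90785851-90786100 for Cxcl3 and chr5:30012864-30013113 for Il6. Capitals mark matches to the NF-kB motif (GGGA, any 2 bases, TTCC) on either strand, where matches on both strands overlap in the chemokine genes.
Cxcl1: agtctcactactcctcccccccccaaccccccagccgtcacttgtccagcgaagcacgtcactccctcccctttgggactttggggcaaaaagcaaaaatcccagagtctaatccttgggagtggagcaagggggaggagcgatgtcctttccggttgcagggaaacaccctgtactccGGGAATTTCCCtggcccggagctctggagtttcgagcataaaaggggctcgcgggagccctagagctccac
Cxcl2: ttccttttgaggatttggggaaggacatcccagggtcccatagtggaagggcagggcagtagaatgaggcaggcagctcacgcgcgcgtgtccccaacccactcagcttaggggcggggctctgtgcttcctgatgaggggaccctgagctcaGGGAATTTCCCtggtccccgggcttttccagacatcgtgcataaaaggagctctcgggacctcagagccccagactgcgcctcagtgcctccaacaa
Cxcl3: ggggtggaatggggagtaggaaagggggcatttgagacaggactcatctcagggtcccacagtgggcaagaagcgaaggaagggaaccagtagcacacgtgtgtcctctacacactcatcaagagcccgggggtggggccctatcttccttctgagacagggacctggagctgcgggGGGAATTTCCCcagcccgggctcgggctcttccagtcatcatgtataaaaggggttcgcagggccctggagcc
Il6: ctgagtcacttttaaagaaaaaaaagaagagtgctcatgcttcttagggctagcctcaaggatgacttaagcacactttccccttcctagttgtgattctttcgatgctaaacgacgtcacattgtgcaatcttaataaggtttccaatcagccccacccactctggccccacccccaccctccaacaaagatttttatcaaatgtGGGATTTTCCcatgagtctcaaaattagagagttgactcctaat

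The matches begin 71 bases before the start in Cxcl1, 97 in Cxcl2, 73 in Cxcl3 and 44 in Il6. Of the 6 chemokine list genes that fell, 5 had a promoter window in the RefSeq table, and 3 of the windows held a match; of 9 general cytokine genes that fell, 7 had a window and 1, Il6, held a match. Among all genes tested with a window, 154 of 12347 held the motif (1.25%), among genes that fell 18 of 641 (2.81%) and among genes that rose 0.735%. The C/EBP motif TTGCNNAA, read on both strands, was in 7.83% of all windows, 12.8% of those of genes that fell and 7.35% of those of genes that rose. For the STAT motif TTCNNNGAA the shares were 6.12%, 9.83% and 3.68%, and for the AP-1 motif TGANTCA 4.82%, 8.11% and 4.41%. A match is a run of letters, and binding was not measured.

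In the libraries, Cxcl1 stood at 8.11, 25.1 and 78.9 CPM under PBS and at 0.784, 4.08 and 5.47 CPM under the antibody, and the groups did not overlap (-3.12 ± 0.492, adjusted p = 0.000423). Cxcl3 stood at 3.85, 14.9 and 75.7 CPM under PBS and 0.0584, 0.249 and 1.38 CPM under the antibody, again with no overlap (-6.08 ± 0.893, adjusted p = 0.000254). Cxcl2 was lower too, at 3.71, 24.8 and 173 CPM against 0.234, 1.35 and 5.60 CPM. For Cxcl2 the highest antibody library passed the lowest PBS library (-4.83 ± 0.78, adjusted p = 0.000506). Cxcl5, a ligand made mainly by epithelium and stroma, fell by 3.55 ± 0.643 on the log2 scale (adjusted p = 0.00127; 0.062 without PBS replicates 5 and 6).

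Among chemokines for monocytes and T cells, 8 of 20 fell and none rose (median -1.17), against 5.45% of all genes that fell. Ccl2, which draws monocytes, fell from 10.6, 21.9 and 53.9 CPM to 2.09, 2.80 and 7.34 CPM with no overlap (-2.98 ± 0.44, adjusted p = 0.000254). Ccl3, Ccl4 and Ccl7, which also draw monocytes, fell by 4.38 ± 0.652, 4.85 ± 0.707 and 2.29 ± 0.383 on the log2 scale (adjusted p = 0.000263, 0.000254 and 0.000646). Cxcl9 and Cxcl10, chemokines induced by interferon, did not pass. The number was 4 of 20 without PBS replicates 5 and 6.

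Cytokines of the interleukin-1 family fell at the level of ligands, decoy receptor and inflammasome sensor. Il1b encodes interleukin-1 beta (Entrez gene ID 16176, chromosome 2, 129364569 to 129371164). It stood at 73.4, 122 and 1010 CPM under PBS and at 7.18, 14.4 and 42.1 CPM under the antibody. The groups did not overlap, and PBS replicates 5 and 6 were the highest (-4.11 ± 0.645, adjusted p = 0.000423). Il1a, an alarmin that binds the same receptor, fell from 6.79, 15.7 and 142 CPM to 0.467, 1.07 and 3.90 CPM (-4.84 ± 0.718, adjusted p = 0.000254).

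Of 13 genes in this family's list 8 fell, 4 of them without overlap (median -2.01), and without PBS replicates 5 and 6 the number was 4. Il1r2, a decoy receptor that neutrophils carry, fell by 3.72 ± 0.525 on the log2 scale (adjusted p = 0.000254), and Nlrp3, the sensor of an inflammasome, by 3.10 ± 0.488 (adjusted p = 0.000423). Il33, an alarmin of stroma and epithelium, fell from 18.1, 29.9 and 136 CPM to 7.40, 13.2 and 18.96 CPM (-2.01 ± 0.389, adjusted p = 0.00229). Its groups overlapped only where the highest antibody library passed the lowest PBS library, and the call was lost without PBS replicates 5 and 6 (adjusted p = 0.186). The interleukin-1 receptor antagonist Il1rn did not pass, with 102, 134 and 366 CPM under PBS and 74.3, 106 and 172 CPM under the antibody (-0.63 ± 0.308, adjusted p = 0.216).

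The receptor the antibody is named for and its ligands gave few counts. Il1rl2, the mouse gene of the interleukin-36 receptor (Entrez gene ID 107527, chromosome 1, 40324589 to 40367555), stood at 0.637, 1.32 and 3.41 CPM under PBS and 0.378, 0.784 and 1.75 CPM under the antibody, and it did not pass (-1.01 ± 0.407, adjusted p = 0.137). Il1rap, the shared second receptor chain, gave 15.1, 16.3 and 41.2 CPM and 12.7, 16.6 and 20.9 CPM (-0.41 ± 0.193, adjusted p = 0.205). Il1f9, the gene of interleukin-36 gamma, had 11 to 22 counts per PBS library and 12 to 32 per antibody library and did not pass (adjusted p = 0.281). Il1f6, Il1f8 and Il1f5, which encode interleukin-36 alpha, interleukin-36 beta and the receptor antagonist, are listed at 0 counts in all 26 colon libraries. In skin Il1f5 had 4159 to 13610 counts per library, so the gene is counted in that table, whereas Il1f6 is listed at 0 there too. The antibody is labelled as one to the human receptor, and how far counts of mouse Il1rl2 stand for it was not tested.

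Interleukin-6 family cytokines, which signal through gp130 to STAT3, fell with them. Il6 encodes interleukin-6 (Entrez gene ID 16193, chromosome 5, 30013114 to 30019975). Il6 stood at 0.902, 10.1 and 19.04 CPM under PBS and at 0.126, 0.427 and 0.867 CPM under the antibody, and the groups did not overlap, though narrowly (-4.51 ± 0.634, adjusted p = 0.000254). Il11, a stromal cytokine of mucosal repair, fell from 8.05, 38.7 and 91.3 CPM to 0.678, 2.85 and 4.01 CPM (-4.16 ± 0.55, adjusted p = 0.000222). The PBS libraries of Il11 all lay above the antibody libraries.

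Osm, oncostatin M, a myeloid cytokine that acts on gut stroma (Entrez gene ID 18413, chromosome 11, 4236785 to 4241026), fell from 6.37, 12.7 and 75.8 CPM to 0.526, 1.11 and 3.15 CPM with no overlap (-4.03 ± 0.527, adjusted p = 0.000222). Its receptor gene Osmr fell by 1.09 ± 0.225 on the log2 scale (adjusted p = 0.00384) and Lif by 1.08 ± 0.209 (adjusted p = 0.00229), and both calls were lost without PBS replicates 5 and 6. Tnf, tumour necrosis factor, stood at 4.12, 8.71 and 27.9 CPM and at 2.55, 4.72 and 7.62 CPM. It passed narrowly (-1.27 ± 0.386, adjusted p = 0.0482), and the call was lost in 14 of 23 alternative analyses. In all, 9 of 14 general inflammatory cytokine genes fell and none rose (median -1.18), 6 without overlap, and 4 of 14 fell without PBS replicates 5 and 6.

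**Figure D2:**
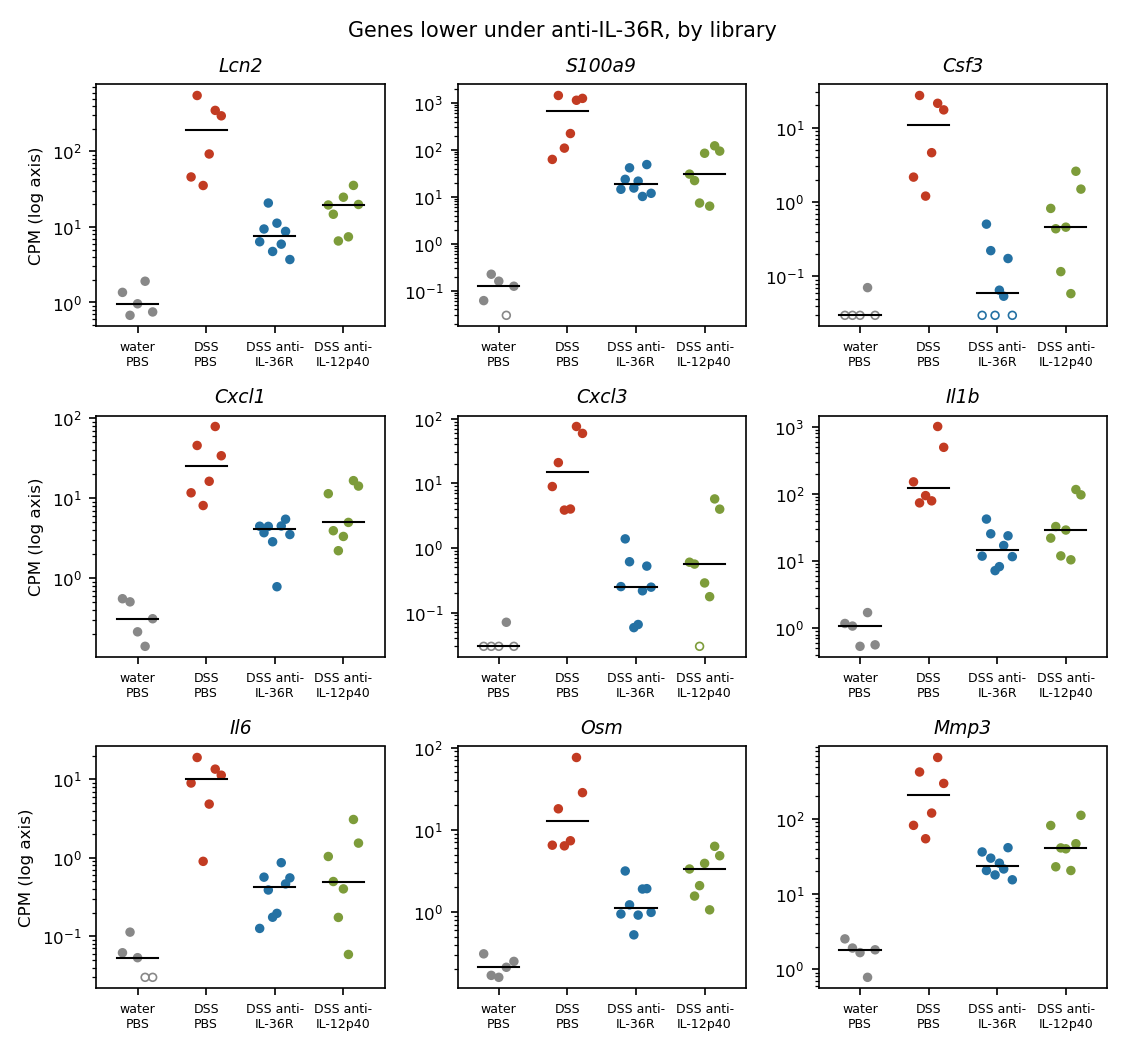
CPM on a log axis for 9 genes in each library of water PBS (5), DSS PBS (6), DSS anti-IL-36R (8) and DSS anti-IL-12p40 (7); points are libraries, lines are medians, and open points drawn at 0.03 CPM had 0 counts. In each panel all anti-IL-36R points lie below all DSS PBS points; Lcn2 falls from a median of 193 to 7.54 CPM, while water controls stay at 1.91 CPM or less.

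Interleukin-17 cytokines were scarce and fell. Il17a, made by T cells and innate lymphoid cells, stood at 0.119, 1.22 and 8.23 CPM under PBS and at 0.0617, 0.234 and 0.931 CPM under the antibody, with wide overlap (-2.83 ± 0.665, adjusted p = 0.01). Il17f fell by 2.49 ± 0.632 on the log2 scale (adjusted p = 0.0174; adjusted p = 0.632 without PBS replicates 5 and 6). Of the receptor chains, Il17ra fell (-0.78 ± 0.145, adjusted p = 0.00151) and Il17rc rose (0.50 ± 0.153, adjusted p = 0.0479). Il22, which acts on epithelium, Ifng and Il12b, the gene of IL-12p40, did not pass, with log2 fold changes of -1.74 ± 0.795 (adjusted p = 0.19), -2.99 ± 1.01 (adjusted p = 0.0736) and -1.22 ± 0.468 (adjusted p = 0.117). Ifng passed when PBS replicate 2, PBS replicate 4 or antibody replicate 2 was left out (adjusted p = 0.0376, 0.0392 and 0.0379), and Il12b without PBS replicate 2 (adjusted p = 0.0253). In all, 3 of 15 genes of this list fell and 1 rose. Without PBS replicates 5 and 6, 13 genes of the list could be tested and none passed. Il17a could not be tested there, and its call was lost with limma-voom (adjusted p = 0.162).

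Feedback genes that NF-kB and STAT3 induce fell in part, 6 of 15, with none higher and a median of -0.36. Socs3, an inhibitor of gp130 signalling, stood at 74.1, 152 and 288 CPM under PBS and 17.9, 43.8 and 50.8 CPM under the antibody. The groups did not overlap (-2.11 ± 0.316, adjusted p = 0.000274). Nfkbia, the inhibitor of NF-kB, fell by 0.89 ± 0.183 on the log2 scale (adjusted p = 0.00385) and Stat3 by 0.36 ± 0.105 (adjusted p = 0.0403), and both calls were lost without PBS replicates 5 and 6. Without those libraries 1 of 15 fell.

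Among epithelial antimicrobial and stress proteins 6 of 20 fell and none rose (median -1.32). Besides Lcn2, S100a8 and S100a9, which neutrophils also carry, these were Saa3, Nos2 and Slpi. Saa3, a serum amyloid A of epithelium and macrophages, stood at 69.9, 389 and 926 CPM under PBS and at 4.44, 11.4 and 44.3 CPM under the antibody, with no overlap (-4.46 ± 0.686, adjusted p = 0.000366). Slpi, a secreted protease inhibitor, fell by 1.69 ± 0.364 on the log2 scale (adjusted p = 0.00526). Nos2, the inducible nitric oxide synthase, fell by 2.18 ± 0.615 (adjusted p = 0.0316), and its call was lost in 12 of 23 alternative analyses. With PBS replicates 5 and 6 left out, 4 of 20 fell, and Slpi and Nos2 did not pass (adjusted p = 0.0777 and 0.38). The lectins Reg3b and Reg3g and the epithelial oxidase Duox2 did not pass. The neutrophil markers moved with this group and with the chemokines and cytokines, 17 of 21 lower, and their part in these falls was not tested.

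Genes of matrix breakdown and repair were lower throughout: 16 of 22 fell, none rose, and all 22 fold changes were negative (median -2.04). Mmp3, stromelysin 1 (Entrez gene ID 17392, chromosome 9, 7445822 to 7455975), stood at 54.6, 209 and 660 CPM under PBS and 15.5, 23.7 and 41.5 CPM under the antibody. The groups did not overlap (-3.38 ± 0.463, adjusted p = 0.000254), and PBS replicates 2, 5 and 6 were the highest. Mmp10, a second stromelysin, and Mmp13, a collagenase, fell by 3.39 ± 0.524 and 3.79 ± 0.591 on the log2 scale (adjusted p = 0.000379 and 0.000416).

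Inhibitors and enzymes of the same list moved the same way. Timp1, an inhibitor of metalloproteases, fell from 15.5, 43.1 and 125 CPM to 5.10, 9.32 and 14.95 CPM with no overlap (-2.51 ± 0.421, adjusted p = 0.000672). Ptgs2, the inducible cyclooxygenase, fell from 30.2, 92.8 and 562 CPM to 8.10, 12.3 and 27.2 CPM, also with none (-3.43 ± 0.539, adjusted p = 0.000423). With PBS replicates 5 and 6 left out, 10 of 22 fell. Collagen genes went less far: of 20 fibroblast and collagen genes 1 fell, Pdpn (-1.25 ± 0.31, adjusted p = 0.0144). That share, 5%, is close to the 5.45% of all genes that fell, although all 20 fold changes were negative (median -0.63). None of the 20 passed without PBS replicates 5 and 6 (median -0.13), and Pdpn then had an adjusted p of 0.365.

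Among monocyte and macrophage markers 12 of 27 fell and 1 rose (median -0.82). Genes of inflammatory monocytes fell, such as Ly6c2 (-1.49 ± 0.418, adjusted p = 0.0308) and Fcgr4, an activating Fc receptor (-1.84 ± 0.397, adjusted p = 0.00526). Arg1, arginase 1, reached 442 CPM in the highest PBS library against a group median of 20.01 CPM and fell by 5.17 ± 1 on the log2 scale (adjusted p = 0.00236; 0.262 without PBS replicates 5 and 6). Mertk, a receptor by which resident macrophages clear dying cells, stood at 18.2, 26.8 and 38.9 CPM under PBS and 30.9, 40.6 and 49.1 CPM under the antibody and rose (0.56 ± 0.146, adjusted p = 0.0208). Adgre1, Cd68, Csf1r and the complement genes C1qa, C1qb and C1qc did not pass. Without PBS replicates 5 and 6, 2 of 27 markers fell and none rose.

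Lymphocyte and vessel genes showed fewer calls, to be set beside the 5.45% of all genes tested that fell. Of 22 markers of T, NK and innate lymphoid cells 3 fell: Gzmb and Prf1, which encode killing proteins, and Ctla4, an inhibitory receptor (-1.89 ± 0.517, -1.62 ± 0.48 and -1.54 ± 0.403, adjusted p = 0.0265, 0.042 and 0.0204). Of 20 B and plasma cell markers 5 fell, among them Cxcl13, the chemokine of lymphoid follicles (-1.58 ± 0.282, adjusted p = 0.00114), and Mzb1, a plasma cell chaperone (-1.52 ± 0.421, adjusted p = 0.0292). Without PBS replicates 5 and 6 these numbers were 0 of 22 and 1 of 20. Of 19 endothelial and adhesion genes 4 fell: the selectins Sele (-3.23 ± 0.577, adjusted p = 0.00114) and Selp (-2.86 ± 0.473, adjusted p = 0.000624), Icam1 and Madcam1, all of which serve the exit of leukocytes from blood. This number was 1 of 19 without PBS replicates 5 and 6, where Selp passed (adjusted p = 0.0224) and Sele and Icam1 did not (adjusted p = 0.0995 and 0.147). The general endothelial markers Pecam1 and Cdh5 did not pass.

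Interferon genes gave no call. None of 24 type I interferon-stimulated genes passed (median -0.40). None of 23 interferon gamma and antigen presentation genes passed either, though all 23 had negative fold changes (median -0.76). The list of interferon gamma genes had risen under DSS against water for 23 of 23 members, against 17.6% of all genes tested in that comparison. Cell cycle genes (0 of 22) and genes of the mitochondrial respiratory chain (0 of 25) also gave no call.

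**Figure D3:**
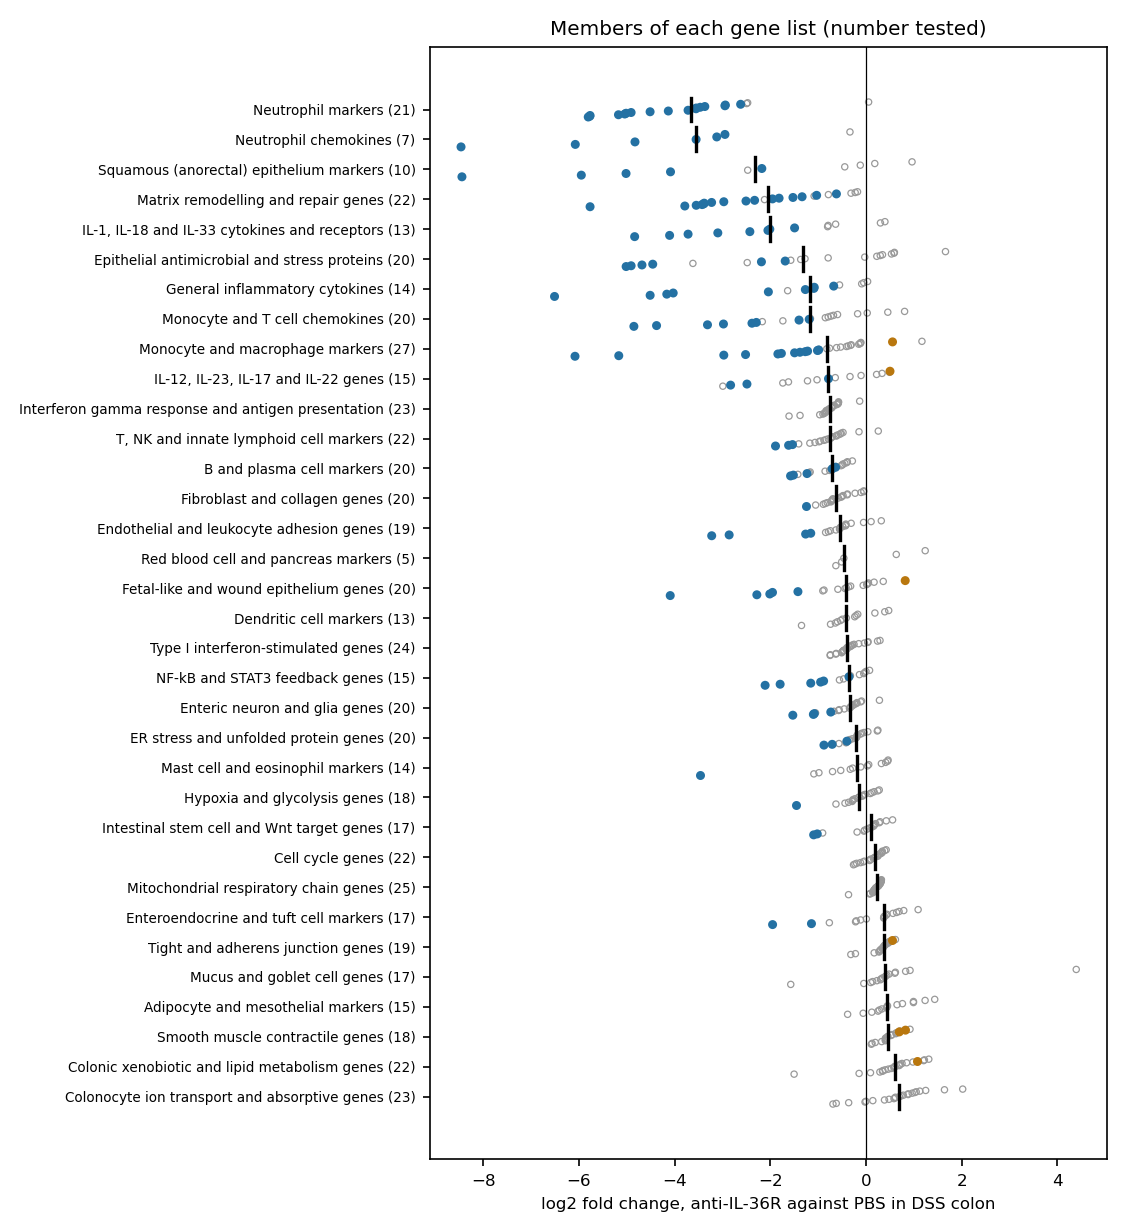
Log2 fold change of each tested member of 34 gene lists, anti-IL-36R against PBS in DSS colon; filled blue points fell, filled orange points rose, open points did not pass, and black bars are list medians. Neutrophil markers (median -3.66) and neutrophil chemokines (median -3.55) lie farthest to the left, and colonocyte transport genes (median 0.70) farthest to the right with no member that passed.

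The genes that rose were fewer and changed less. Gasdermin C genes, which form membrane pores in colonocytes, were among the 15 largest rises. Gsdmc4 (Entrez gene ID 74548, chromosome 15, 63891140 to 63912319) stood at 97.6, 293 and 629 CPM under PBS and 425, 767 and 918 CPM under the antibody, with water controls at 566 to 1520 CPM. Only the lowest part of the antibody range overlapped the PBS range (1.14 ± 0.31, adjusted p = 0.0263). Gsdmc rose by 1.29 ± 0.305 on the log2 scale (adjusted p = 0.0103). Counts of both were fractional in all 26 libraries, as where reads are divided among related genes.

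Other risen genes of the epithelium were Abcb1a, a drug efflux pump, and Aadac, an esterase. Abcb1a stood at 71.4, 203 and 373 CPM under PBS, 266, 473 and 640 CPM under the antibody and 446 to 996 CPM in water controls (1.06 ± 0.284, adjusted p = 0.0226). Aadac stood at 0.909, 5.98 and 16.5 CPM and at 11.4, 27.2 and 43.6 CPM (1.80 ± 0.501, adjusted p = 0.0295). Tppp, a tubulin polymerization protein, rose by 1.16 ± 0.273 on the log2 scale (adjusted p = 0.0101) from 10.9, 24.5 and 32.4 CPM to 29.6, 48.3 and 74.1 CPM, still below the 124 to 171 CPM of water controls. Pla2g3, Akr1b7, Scin, Bnip5 and Prdm6, not assigned to a cell type here, rose by 1.07 to 1.58 on the log2 scale. The calls of these 10 genes, the gasdermins included, were each lost without PBS replicates 5 and 6.

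Lists of epithelial function had few calls and positive medians. Of 23 colonocyte transport and absorption genes none passed (median 0.70), and of 17 mucus and goblet cell genes none (median 0.39). Of 22 xenobiotic and lipid metabolism genes Abcb1a alone rose (median 0.60), and of 19 junction genes Marveld3, a tight junction protein, alone rose (0.55 ± 0.167, adjusted p = 0.0492), a call lost in 13 of 23 alternative analyses. No member of these 4 lists passed without PBS replicates 5 and 6, and the medians were then 0.32 for transport, -0.02 for goblet cell, 0.28 for metabolism and 0.10 for junction genes. The summed level of the transport genes was 862, 4050 and 5820 CPM under PBS, 4550, 5640 and 12400 CPM under the antibody and 7080, 8530 and 10600 CPM in water controls. The antibody and PBS ranges overlapped.

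Some muscle genes rose. Of 18 smooth muscle contractile genes 2 rose and 16 did not pass: Synm, an intermediate filament protein (0.83 ± 0.208, adjusted p = 0.0165), and Hspb6, a small heat shock protein (0.70 ± 0.198, adjusted p = 0.0332), and all 18 fold changes were positive (median 0.45). Casq2, a calcium store protein (1.20 ± 0.343, adjusted p = 0.0345), and Myh2, a skeletal muscle myosin (2.23 ± 0.517, adjusted p = 0.00904), were among the largest rises. None of the 18 passed without PBS replicates 5 and 6 (median 0.49), where Synm, Hspb6 and Myh2 had adjusted p of 0.2, 0.3 and 0.159. The calls of Hspb6 and Casq2 were lost in 12 and 13 of 23 alternative analyses. The summed level of the smooth muscle genes was 7120, 10100 and 12000 CPM under PBS and 8210, 13600 and 16500 CPM under the antibody. The part that the share of muscle in each piece of tissue had in these rises was not tested.

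Some of the largest fold changes rested on single libraries. The keratins of stratified squamous epithelium Krt5, Krt14 and Krt6b stood at 1500, 1070 and 392 CPM in PBS replicate 6. In the other 5 PBS libraries Krt5 lay between 0.191 and 11.1 CPM and under the antibody between 0.189 and 0.931 CPM. Krt5 fell by 8.45 ± 1.54 on the log2 scale (adjusted p = 0.00132) with all libraries and stood at 0.41 without PBS replicates 5 and 6, which turns its direction (adjusted p = 0.857). Krt14 turned too, from -5.95 ± 1.35 (adjusted p = 0.00769) to 0.66. The 10 tested squamous markers summed to 3250 CPM in PBS replicate 6 and to 70.2 to 170 CPM in the other PBS and antibody libraries. Ppbp, the chemokine of platelets, also followed that library, at 615 CPM against 0 to 7.46 CPM in the other PBS libraries (-8.47 ± 1.48, adjusted p = 0.000974).

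The pancreatic enzymes Pnliprp1, Cpb1 and Ctrl gave the largest rises (5.80 ± 1.63, 4.89 ± 1.44 and 3.99 ± 1.08, adjusted p = 0.0313, 0.0399 and 0.025). They followed antibody replicates 3 and 8. Pnliprp1 stood at 43.4 and 66.1 CPM there, at 0.0653 to 0.407 CPM in the other 6 antibody libraries and at 0.0568 to 0.700 CPM under PBS. Without these libraries their log2 fold changes were -0.14, -0.29 and 0.39, and none passed. Over all genes, 635 then fell and 83 rose, and 19 of 20 neutrophil markers tested fell.

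**Figure D4:**
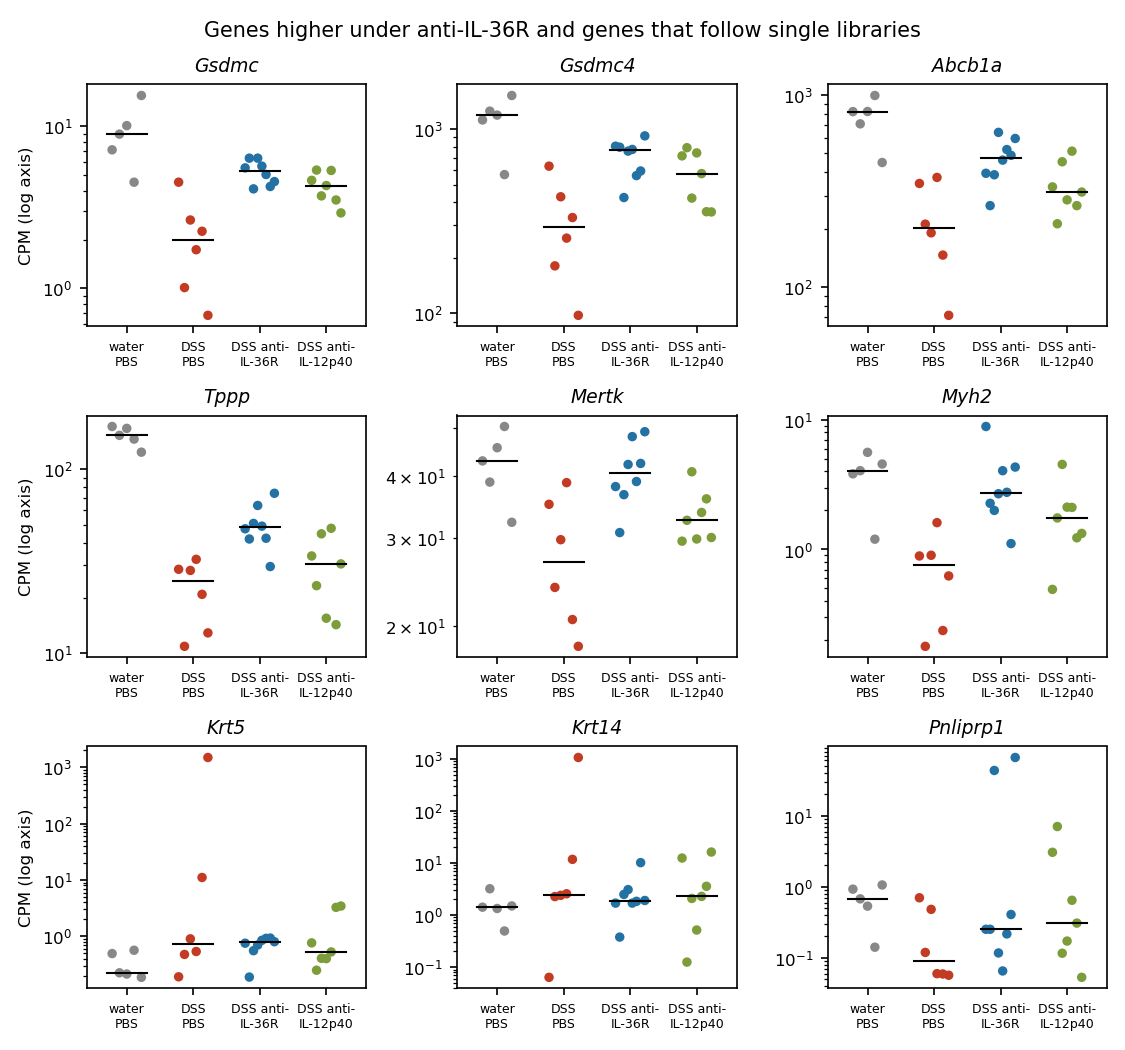
CPM on a log axis for 6 genes that rose under anti-IL-36R (Gsdmc, Gsdmc4, Abcb1a, Tppp, Mertk, Myh2) and for Krt5, Krt14 and Pnliprp1, in each library of the 4 colon groups; points are libraries and lines medians. For the first 6 the antibody points overlap the upper PBS points; Krt5 and Krt14 are high in 1 PBS library (1500 and 1070 CPM) and Pnliprp1 in 2 antibody libraries (43.4 and 66.1 CPM).

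DSS with PBS differed from water with PBS for 5073 genes (32.2%), 2765 higher and 2308 lower, and DSS with anti-IL-36R differed from water for 1561 (9.92%), 1088 higher (6.92%) and 473 lower (3.01%). These comparisons share libraries with the main one, so their values are given side by side only. Lcn2 was 7.67 above water under PBS and 2.98 above it under the antibody on the log2 scale (adjusted p = 9.16e-07 and 0.0075). Il1b was 8.31 and 4.20 above water (adjusted p = 2.01e-06 and 0.00348), and Socs3 4.42 and 2.32 (adjusted p = 4.78e-07 and 0.000769). For Csf3 and Il6 the difference from water passed under PBS (9.29 and 7.46, adjusted p = 1.14e-05 and 5.32e-06) and did not pass under the antibody (2.78 and 2.95, adjusted p = 0.341 and 0.0756). Gsdmc4 and Abcb1a lay 1.82 and 1.76 below water under PBS (-1.82, adjusted p = 0.00027, and -1.76, adjusted p = 0.000151) and did not pass under the antibody (-0.68, adjusted p = 0.177, and -0.70, adjusted p = 0.129). Tppp remained lower than in water under the antibody (-1.61, adjusted p = 0.000888).

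Anti-IL-12p40 against PBS gave 178 lower (1.13%) and 3 higher genes (0.0191%), 181 in all (1.15%), and these rest on the same PBS libraries. Compared directly, anti-IL-36R and anti-IL-12p40 differed for 0 genes by edgeR (0%), with 552 at an unadjusted p under 0.05, and for 0 genes by DESeq2 (631 unadjusted) and by limma-voom (1103 unadjusted). The lowest adjusted p was 1. For Csf3 the difference was -2.68 with a 95% interval from -4.43 to -0.93 before any correction for the number of genes (means 0.127 CPM under anti-IL-36R and 0.852 CPM under anti-IL-12p40). For Lcn2 it was -1.05 (-2.06 to -0.03), for Osm -1.19 (-2.22 to -0.15) and for S100a9 -1.16 (-2.45 to 0.13). Of 113 genes examined one by one, 90 had an interval that included 0, with a median half-width of 0.95 on the log2 scale. Most of these genes were chosen by their change under anti-IL-36R against PBS. The same anti-IL-36R libraries enter this difference, so the choice can pull it toward that change. Over all 15731 genes tested, 13613 had an interval that lay wholly within 1 log2 unit of 0, so for most genes a difference as large as that of Csf3 lay outside the interval. Smaller differences lay within it, and the absence of calls does not show that the antibodies act alike.

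**Figure D5:**
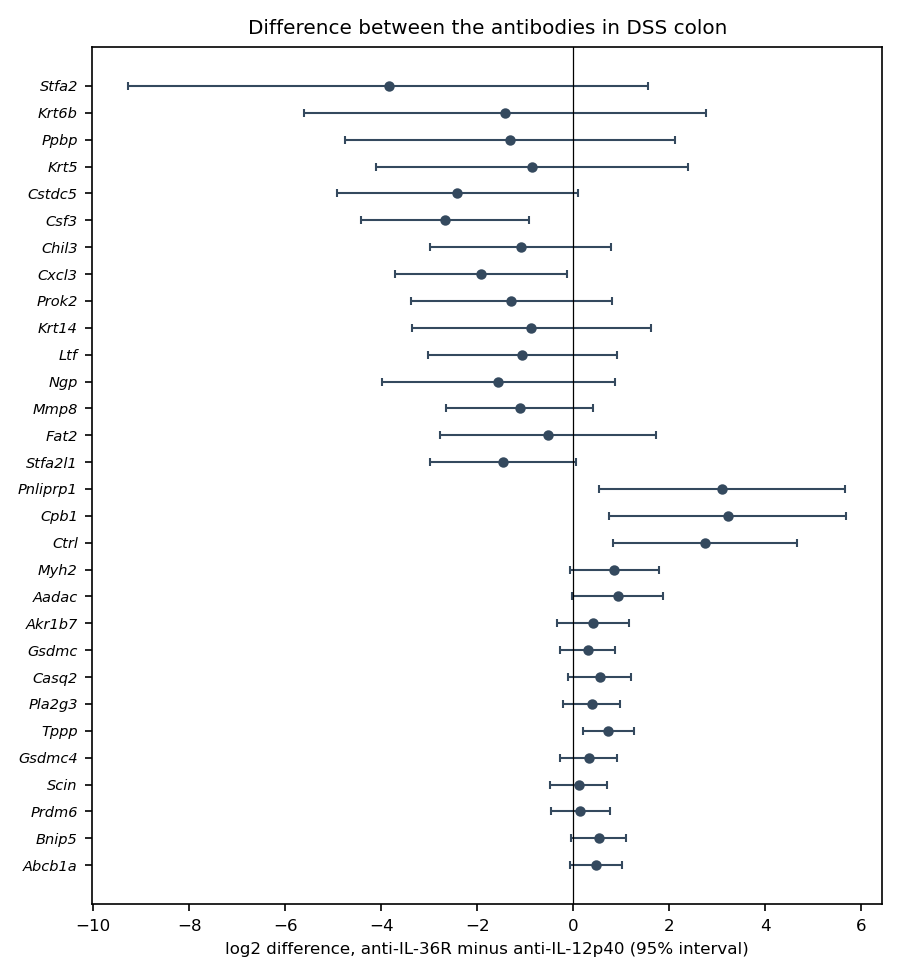
Difference in log2 expression, anti-IL-36R (8 libraries) minus anti-IL-12p40 (7 libraries) in DSS colon. Genes are the 15 largest falls and 15 largest rises under anti-IL-36R against PBS, chosen with the same anti-IL-36R libraries. Bars are 95% intervals without correction for the number of genes. The bars of Csf3, Cxcl3, Pnliprp1, Cpb1, Ctrl and Tppp lie to one side of 0 and the others include it; Csf3 lies at -2.68 (-4.43 to -0.93), and no gene passed after adjustment.

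The effect of anti-IL-36R against PBS was tested for a difference between DSS colon and IMQ skin in a fit of all 49 libraries. Of 16818 genes tested, the effect differed for 864 (5.14%), lower in colon for 694 (4.13%) and higher for 170 (1.01%); without PBS replicate 6 of colon the number was 354. Lcn2 fell by 4.68 ± 0.55 on the log2 scale in colon and stood at 0.34 in skin (adjusted p = 0.777), a difference of -5.00 with adjusted p = 5.06e-06. Il6 fell by 4.51 in colon and stood at 0.46 in skin (adjusted p = 0.791), a difference of -4.96 with adjusted p = 0.000801, which with limma-voom was -2.72 and did not pass (adjusted p = 0.0535). For Cxcl2 and Cxcl3, at -2.69 and -2.65 in skin, the difference between tissues did not pass (adjusted p = 0.303 and 0.0773). The tissues were inflamed by different agents, so tissue and agent cannot be told apart.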

How the data were processed

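Purified mRNA of colon and skin was made into strand-specific libraries, per the labels' protocols. The authors deposited 1 table of expected counts per tissue, made with RSEM on the mouse genome mm10 per the submitters' processing notes, which give no version. Reads that fit several genes are divided among them, and 17.35% of values in the colon table had a fractional part. All 26 colon columns were matched to samples by the numbers in their titles, and 24375 of 24475 gene IDs to a symbol in the RefSeq table of GRCm38.p6.

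After rounding, edgeR 4.0.16 (R 4.3.3) was run with its filterByExpr filter, TMM scaling (factors from 0.91 to 1.09) and quasi-likelihood F tests, with the 4 colon groups in 1 fit, and all 49 libraries for the comparison with skin. P-values were adjusted over all genes tested (Benjamini-Hochberg), and each SE was obtained by dividing the size of the log2 fold change by the root of its F value. No label says that replicates came from separate animals, so p-values measure the spread between these samples, which may in part be technical; no 2 libraries agreed within sampling noise, and replicate numbers are names only. Alternatives were DESeq2 1.42.0 size factors, no filter, a stricter filter (1 CPM in 6 libraries), the DESeq2 Wald test, limma-voom 3.58.1 with sample weights, only the groups compared, and leaving out each library; leaving out pairs of libraries was chosen after seeing the data. The method was run on simulated counts that held no uneven group and no library that stands apart. That run therefore does not bear on calls that rest on such libraries.

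The comparison, the gene lists and the rules were chosen with earlier results of these data known. Genes named are the 15 largest falls and rises among genes that passed with a mean log2 CPM of at least 1 (no predicted or clone-named genes, pseudogenes or sex-linked genes), fixed cytokine genes, members of 35 lists that passed, and the 5 largest differences each way from skin; the text prints part of these; Lcn2 and Il6 in the comparison with skin, and genes named as not passing, were chosen after their values were seen. Promoter windows (250 bases before the start) matched 12347 of the genes tested. Plots used Python 3.11.15 and matplotlib 3.10.9.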

Additional observations from a re-analysis of the deposited data

Results flagged for a closer look

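In groups of 6 or 8, the highest or lowest library lay apart from the rest on the log2 CPM scale in 13 of 226 gene and group pairs examined; chance alone gives about 5% of pairs. Under PBS these were Krt6b (392 CPM in replicate 6), Krt13 (340 CPM), Fat2 (46.2 CPM) and Xbp1 (570 CPM), all 4 in replicate 6, the library with squamous keratins. Under anti-IL-36R, replicate 7 was high for Cxcl5 (37.7 CPM against 7.86 to 16.1 CPM in the others), Osmr (61.4 CPM) and Spp1 (9.71 CPM). Replicate 5 of that group was low for Ly6g (28.8 CPM) and Cxcl1 (0.784 CPM), and replicate 2 was high for Il22 (0.881 CPM) and low for Krt5 (0.189 CPM). Ppbp was high in replicate 3 (0.889 CPM), and Fat2 had 0 counts in replicate 8.

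The genes given here are the 5 largest differences each way between colon and skin among genes that passed the test of the difference. Lcn2 and Il6 were added after their values were seen, so that all 12 passed was fixed by the choice. The antibody effect differed between the tissues as follows. It was lower in colon by -9.56 for Stfa2 (adjusted p = 0.0016), -8.34 for Ppbp (adjusted p = 0.00388), -8.29 for Krt5 (adjusted p = 0.000638), -7.82 for Krt6b (adjusted p = 0.00223), -7.03 for Cstdc5 (adjusted p = 8.3e-05), -5.00 for Lcn2 (adjusted p = 5.06e-06) and -4.96 for Il6 (adjusted p = 0.000801). It was higher in colon by 4.94 for Rnase1, a ribonuclease (adjusted p = 0.0218), 4.40 for Ctrl (adjusted p = 0.0489), 3.24 for Myh2 (adjusted p = 0.00365), 3.05 for Hand1, a transcription factor (adjusted p = 0.0077), and 2.96 for Clrn3 (adjusted p = 0.00391). Hand1 and Clrn3 had log2 fold changes of -2.55 and -2.53 in skin against 0.49 and 0.43 in colon, where neither passed. Leaving out colon PBS replicate 6, the differences of Ppbp, Krt5 and Krt6b were -3.02, -1.71 and -1.82 and did not pass (adjusted p = 0.0939 for Ppbp, 0.213 for Krt5 and 0.319 for Krt6b). The difference of Ctrl was lost in 22 of 32 alternative analyses, among them no filter (adjusted p = 0.0611), the stricter filter (adjusted p = 0.0531) and most analyses that left out 1 library. Rnase1 stood at 18.9 and 38.4 CPM in antibody replicates 3 and 8, the libraries with pancreatic enzymes, and at 0.0582 to 0.315 CPM in the other 6, and its difference did not pass without antibody replicate 8 (adjusted p = 0.0811) or colon PBS replicate 6 (adjusted p = 0.059). With limma-voom the differences of Ppbp, Krt5, Krt6b, Rnase1, Ctrl, Myh2 (2.49, adjusted p = 0.266), Stfa2 (-4.70, adjusted p = 0.0507) and Il6 did not pass, while those of Lcn2, Cstdc5, Hand1 and Clrn3 passed in all 32.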

How the results depend on the processing

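No paired analysis was possible because the labels give no replicate numbers that groups share. For anti-IL-36R against PBS the number of genes was 453 with limma-voom, 421 with only the groups compared, 439 to 1772 when 1 library was left out, 115 without PBS replicates 5 and 6 and 335 without PBS replicates 2 and 6; the direction of most calls was down under each. For DSS against water it was 2941 with only the groups compared, and 3990 to 5508 when 1 library was left out. For anti-IL-36R against water it was 3972 with limma-voom and 981 (without water replicate 1) to 1597 when 1 library was left out. For anti-IL-12p40 against PBS it was 355 with the DESeq2 Wald test, 0 with limma-voom (1064 unadjusted) and 0 with only the groups compared (1284 unadjusted), and 34 (without PBS replicate 5, and the same number without replicate 6) to 408 when 1 library was left out. For the difference between colon and skin it was 354 to 1417, lowest without colon PBS replicate 6 and 515 without replicate 5. Between the antibodies it was 0 throughout. Of 105 genes of the text that passed, 38 passed under every alternative in which they could be tested, and 67 were lost in at least 1. Lcn2, S100a8, S100a9, Csf3, Il1b, Il6, Osm and Mmp3 were among the 38. So was Stfa2, which could be tested in 14 of 23. Of the 102 that could be tested without PBS replicates 5 and 6, 61 were lost there. No alternative left out PBS replicates 2, 5 and 6 together, so whether calls hold without all of these libraries was not tested.

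Directions turned for Krt14 with limma-voom (0.09) and, without PBS replicates 5 and 6, for Krt14 (0.66), Krt5 (0.41), Krt13 (0.26) and Il1rap (0.06). Without antibody replicates 3 and 8 they turned for Pnliprp1 (-0.14) and Cpb1 (-0.29). Ly6g, near 0 with all libraries, stood at -0.05, 0, -0.01 and -0.10 without PBS replicates 1, 4, 5 and 6, at -0.02 and -0.07 without antibody replicates 7 and 8, at -0.18 without PBS replicates 5 and 6 and at -0.07 without antibody replicates 3 and 8. The cause of these changes was not tested. Depth limits genes near 1 CPM, which is about 15 to 19 counts per library, such as Il22 and Il1rl2, which passed under no alternative run.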

Other observations

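Some members of gene lists outside the immune response also passed under anti-IL-36R. Of 20 enteric neuron and glia genes 4 fell and none rose (median -0.33): the neuropeptides Vip (-1.10 ± 0.219, adjusted p = 0.00293) and Gal (-1.53 ± 0.391, adjusted p = 0.0179), the receptor Ret (-0.74 ± 0.218, adjusted p = 0.0416) and the neuronal tubulin Tubb3 (-1.08 ± 0.256, adjusted p = 0.0107). Vip stood at 47.9, 60.7 and 122 CPM under PBS and at 26.1, 33.7 and 48.2 CPM under the antibody, close to the 25.7 to 45.1 CPM of water controls. The highest antibody library of Vip just passed the lowest PBS library, and the calls of these 4 genes were lost without PBS replicates 5 and 6.

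Among genes of regenerating and wounded epithelium 5 of 20 fell and 1 rose (median -0.42). Ereg, an epidermal growth factor family ligand, fell from 34.3, 128 and 256 CPM to 17.2, 24.8 and 44.4 CPM (-2.28 ± 0.435, adjusted p = 0.00199). Sprr2a1, a small proline-rich protein, rose (0.82 ± 0.212, adjusted p = 0.019). Of the stem cell and Wnt list the adhesion receptor Cd44 (-1.09 ± 0.247, adjusted p = 0.0077) and Smoc2 (-1.02 ± 0.282, adjusted p = 0.0287) fell, while Lgr5, Ascl2 and Axin2 did not pass. Of 18 hypoxia and glycolysis genes only Pfkfb3, a driver of glycolysis, fell (-1.47 ± 0.33, adjusted p = 0.00733). That share, 5.56%, is close to the 5.45% of all genes tested that fell. Xbp1, a regulator of secretory cells, fell with Sel1l and Creld2 among 20 genes of protein folding stress (Xbp1 -0.71 ± 0.177, adjusted p = 0.0164). No member of these 4 lists passed without PBS replicates 5 and 6, so the calls of all genes in this paragraph were lost.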
